A study of Mus musculus with 9 samples.

Results

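Microglia sorted after an injection of antibody and complement into the brain (NMO) were compared with those of untreated mice (Normal) across all measured genes, using the 3 NMO and 3 Normal libraries of the 9 in the series. All mice were wild-type female C57BL/6N animals of 12 weeks, and each library held RNA of cells pooled from 3 mice. NMO mice had received purified IgG of patients with neuromyelitis optica together with human complement by injection into the striatum of the right hemisphere, brains were taken on day 1, and cells positive for CD45, CD11b and P2ry12 were sorted. Normal mice were neither injected nor given any agent. The remaining 3 libraries (NMO+CL) came from mice that were given clodronate liposomes before the same injection. They are not compared here, but they entered the scaling, the filter on low counts, the spread between libraries and a check of absent genes. The filter kept 12292 genes with them and 11620 without them. Mice given control IgG with complement were not analysed here, so the needle injury, the antibody and the complement cannot be told apart. The methods state that brains were dissociated with enzyme, and which side or region the sorted cells came from is not given in the sources used here.

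Neuromyelitis optica is an autoimmune disease in which antibodies bind the water channel aquaporin-4 on the endfeet of astrocytes and complement then damages these cells. Microglia, the resident macrophages of the brain, carry receptors for the complement fragments C3a and C5a, for chemokines and for cell debris. On activation they are known to lower genes of their resting state, make cytokines, take up debris and in part re-enter the cell cycle. RNA was read from the 3′ ends of polyadenylated transcripts, so a count stands for a transcript end and carries no isoform information.

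Libraries held between 5788234 and 7837219 counts. At least 1 count was found for 13506 to 14315 genes in Normal and for 12498 to 13139 genes in NMO, so the groups did not overlap (exact two-sided permutation p = 0.1, the smallest that 3 against 3 libraries allow), and the same order held when each library was thinned to 5788234 counts in all, the ribosomal RNA entry Rn45s included, which held 15.98% to 30.98% of the counts. NMO replicate 2 had no count for 41 genes that had at least 20 in each of the other 8 libraries, against 0 to 13 such genes elsewhere. The sort was visible in the transcripts: Ptprc, which encodes CD45, ran from 368 to 465 CPM (counts scaled to a common library size) in Normal and from 413 to 423 in NMO, and Itgam, which encodes CD11b, from 567 to 781 and from 551 to 787. P2ry12 had 2608, 2055 and 2665 CPM in Normal and 1756, 1558 and 1630 in NMO. It was lower in each NMO library but not called (log2 fold change -0.57, SE 0.19, adjusted p = 0.255 by edgeR). Since the RNA comes from bulk cells, fewer cells that carry a transcript and less of it per cell cannot be told apart.

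The groups differed mainly by rises in NMO. Of 12292 genes tested, 58 were called higher in NMO at an adjusted p under 0.05, which is 0.472% of them, and 3 were called lower, which is 0.0244%. At the thresholds used by the study, a change of at least 1.5-fold with an unadjusted p under 0.05, the counts were 639 higher (5.2%) and 340 lower (2.77%). All 3 NMO libraries lay above all 3 Normal libraries for 1132 genes (9.21%) and below them for 1008 (8.2%). The called genes did not overlap between the groups in any of the 61 cases. Rises over 4-fold numbered 14, while 40 lay between 2-fold and 4-fold and 4 below 2-fold. The median log2 fold change of the 58 rises was 1.46.

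**Figure D1:**
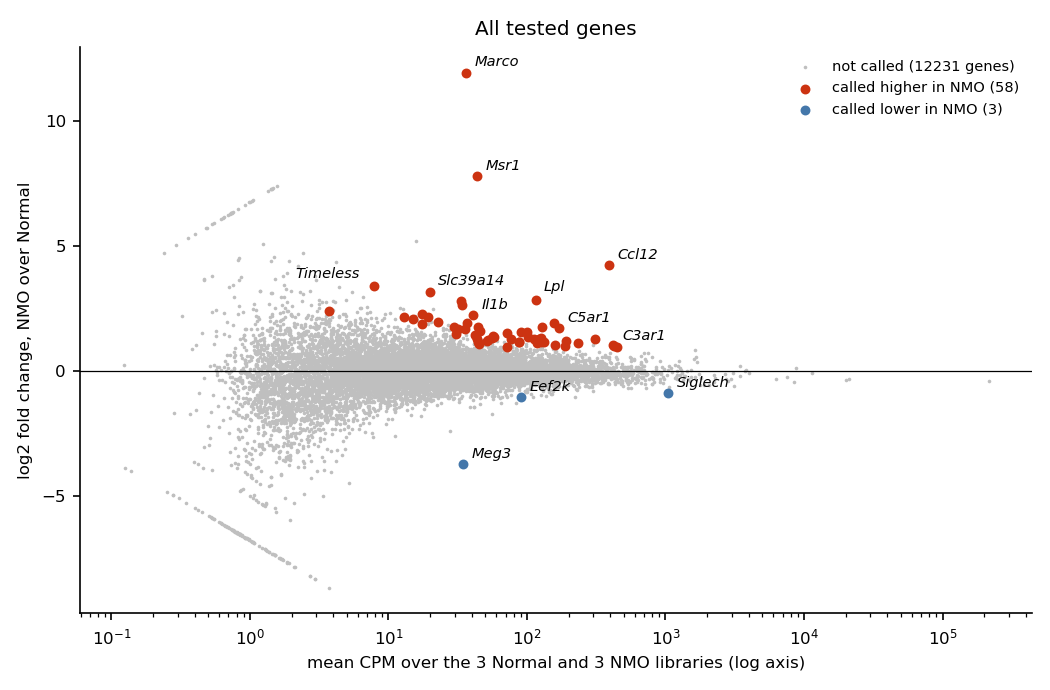
Log2 fold change of NMO over Normal (vertical axis) against mean CPM over the 6 libraries (horizontal log axis) for all tested genes, with the 58 genes called higher in red and the 3 called lower in blue. Marco and Msr1 stand apart at log2 fold changes of 11.94 and 7.80. The value of Marco comes from the fit, since Normal held 0 counts of it, and the counts give only a rise of at least 152-fold. Most other called genes lie between 1 and 4, and the diagonal lines at the lower left and upper left are genes with 0 counts in 1 of the groups, none of which was called except Marco.

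The 58 rises included scavenger receptors (Marco, Msr1), chemokines and a cytokine (Ccl12, Ccl2, Il1b), receptors for complement fragments and other signals (C5ar1, C3ar1, Gpr84, Gpr65), metal carriers (Tfrc, Slc39a14, Cp) and the lipase Lpl. Others act in the making of ribosomes, proteins, nucleotides and DNA. Of the 58, 28 belonged to a list fixed for this comparison and 30 to none. NMO replicate 3 was the lowest of the NMO libraries for 32 of the 58, replicate 1 for 17 and replicate 2 for 9. Among those lowest in replicate 3 were Marco, Msr1, Ccl12, Ccl2, Il1b, C5ar1 and C3ar1.

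**Figure D2:**
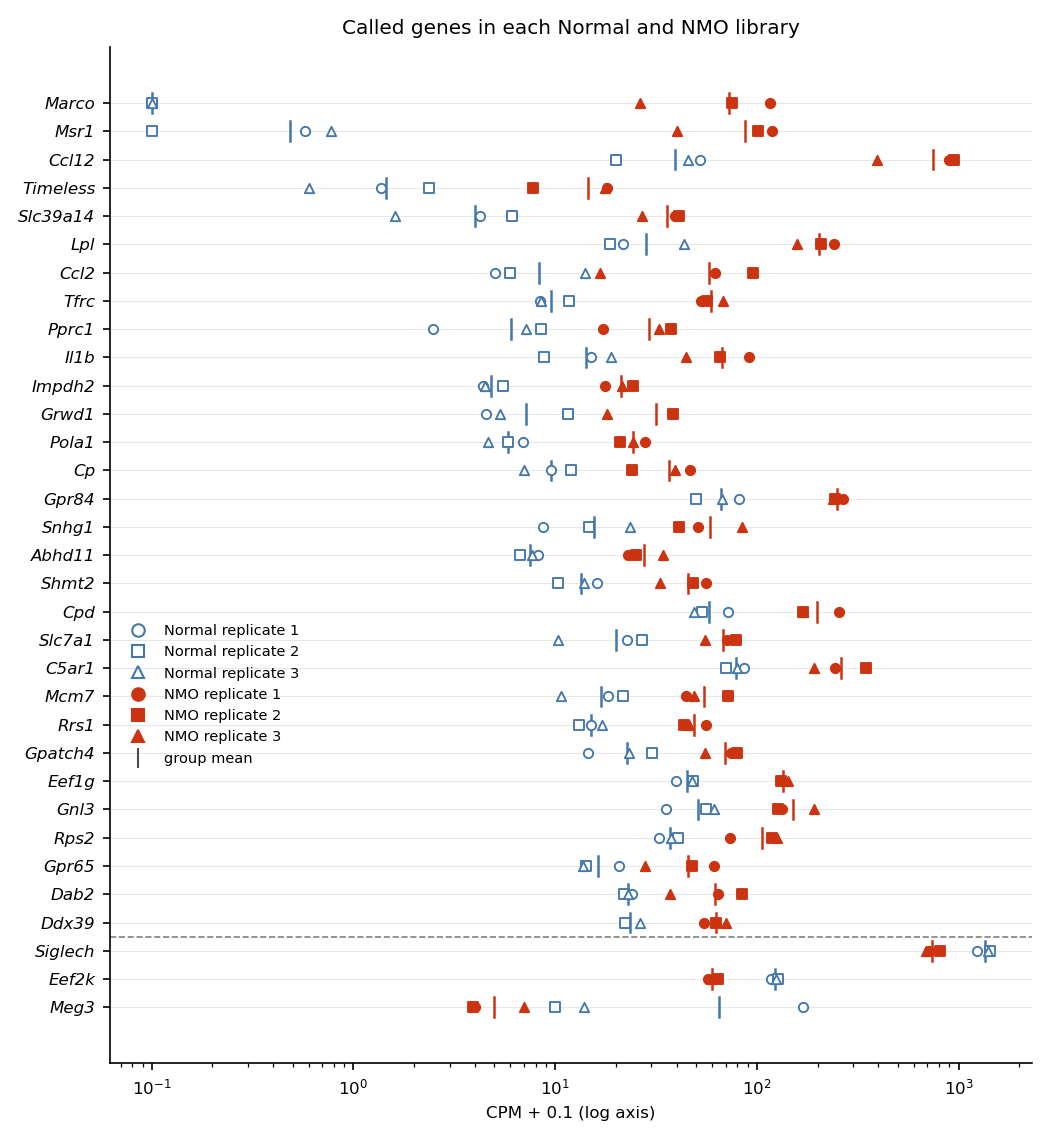
CPM plus 0.1 on a log axis in each library for the 30 largest called rises with a mean of at least 50 counts and, under the dashed line, the 3 called falls. Open blue symbols are Normal and filled red symbols NMO libraries, with a shape for each replicate and a vertical tick at the group mean. The groups are separate for every gene shown, and for the rises this was a condition of being drawn. The NMO triangle (replicate 3) often lies to the left of the other NMO symbols, and Meg3 has 1 Normal library far from the others.

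Scavenger receptors bind modified lipoproteins, microbes and debris on macrophages. Marco (chromosome 1, 120474538 to 120505024, minus strand, GRCm38), a class A receptor, had 0 counts in every Normal library and 923, 630 and 164 counts in NMO, which are 116, 75.4 and 26.3 CPM. No Normal library thus held a read of it. With 3 counts allowed in each Normal library, the level in NMO was at least 152-fold higher, and Marco was called at an adjusted p of 1.27e-05. Msr1 (chromosome 8, 39581685 to 39642673, minus strand), another class A receptor, had 3, 0 and 4 counts in Normal and 946, 845 and 250 in NMO, which are 119, 101 and 40.0 CPM. Its log2 fold change of 7.80 (SE 0.55, adjusted p = 8.86e-07) depends on 7 Normal counts in all. Both genes kept their call in 17 of 18 alternative fits and lost it with limma-voom (adjusted p = 0.115 and 0.135). Of 15 scavenger receptors tested, 10 had a positive log2 fold change, 2 were called (13.3%, beside 0.472% of all genes), 4 lay wholly above Normal (26.7%, beside 9.21%), and the list median was 0.14 beside -0.01 for all tested genes. Without 1 library it was 0.06 (Normal replicate 1), 0.08 (Normal replicate 2, NMO replicate 1 or NMO replicate 2) and 0.23 (NMO replicate 3). Scarf2 was higher in each NMO library, at 11.3, 15.2 and 18.6 CPM against 5.74, 9.33 and 3.197, without a call (log2 fold change 1.30, adjusted p = 0.505). Cxcl16, a scavenger receptor and chemokine, was higher as well (0.83, 0.380). Lrp1, Cd68 and Cd14, the members of highest mean CPM, had log2 fold changes of -0.07, 0.15 and 0.09, and Mrc1 one of -0.49.

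A pair of chemokines that draw in monocytes rose, and edgeR called none of the other 16 tested chemokines. Ccl12 (chromosome 11, 82101845 to 82103400, plus strand), a ligand of the monocyte receptor Ccr2, had 51.9, 19.9 and 45.4 CPM in Normal and 897, 947 and 394 in NMO. Even the lowest NMO library stood far above the highest Normal library (log2 fold change 4.26, SE 0.50, adjusted p = 3.79e-04), and the call held in all 18 alternatives. Ccl2, a second ligand of Ccr2 (chromosome 11, 82035571 to 82037453, plus strand), had 4.94, 5.87 and 13.965 CPM in Normal and 62.2, 95.4 and 16.7 in NMO. Here NMO replicate 3 barely exceeded Normal replicate 3. Ccl2 was called (log2 fold change 2.82, SE 0.55, adjusted p = 0.0258), but not without Normal replicate 1 (0.153), Normal replicate 2 (0.154), NMO replicate 1 (0.0866) or NMO replicate 2 (0.131), and not with limma-voom (0.159), the 6 libraries only (0.0573) or the replicate block (0.0691), which makes 7 of 18 alternatives. Ccl7, of the same family, had 4.14, 8.43 and 3.87 CPM in Normal and 34.2, 31.1 and 11.8 in NMO, and missed the threshold with edgeR (2.23, 0.119), but not with DESeq2 (0.0286) or without a filter (0.0448). Cxcl2, which draws neutrophils, was higher in each NMO library (1.82, 0.312). Ccl3 and Ccl4, among the 3 chemokines of highest mean CPM, ranged from 165 to 221 and 121 to 161 CPM in Normal and from 125 to 303 and 82.8 to 254 in NMO, so that the groups overlapped (0.27 and 0.14). Ccl6 was lower in each NMO library (-0.54, 0.366). Cxcl12 had 26, 10 and 70 counts in Normal and 8, 0 and 0 in NMO (adjusted p = 0.429). Of 18 chemokines tested, 2 were called higher (11.1%, beside 0.472% of all genes) and 0 lower, 5 were higher past 1.5-fold with an unadjusted p under 0.05 (27.8%, beside 5.2%), 5 lay wholly above Normal (27.8%, beside 9.21%) and 3 wholly below (16.7%, beside 8.2%), and the median log2 fold change was 0.21. Without 1 library that median was 0.06 (Normal replicate 3), 0.05 (NMO replicate 1), 0.09 (NMO replicate 2) and 0.42 (NMO replicate 3).

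Among cytokines edgeR called 1 of 25 tested genes (4.0%, beside 0.472% of all genes). Il1b (chromosome 2, 129364570 to 129371139, minus strand), the inflammasome-processed cytokine IL-1 beta, had 14.98, 8.73 and 18.8 CPM in Normal and 91.2, 65.7 and 44.5 in NMO. The lowest NMO value was well above the highest Normal value (log2 fold change 2.24, SE 0.33, adjusted p = 0.00372, called in all 18 alternatives). Its antagonist Il1rn had 7, 0 and 0 counts in Normal and 72, 49 and 10 in NMO and was not called (3.83, 0.342). Tnf had 26.9, 20.2 and 16.5 CPM in Normal and 38.2, 47.5 and 20.7 in NMO, with NMO replicate 3 inside the Normal range (0.74, adjusted p = 0.534). Il6 had between 6 and 62 counts in each library (-0.40, 0.978). Nos2, the inducible nitric oxide synthase, had 8, 7 and 0 counts in Normal and 0, 0 and 15 in NMO, too few to test. Of the inflammasome genes, Pycard was higher in each NMO library (0.62, 0.289), and Nlrp3 (0.21) and Aim2 (-0.26) overlapped. The list median was 0.24, and 0.48 without Normal replicate 1, 0.13 without NMO replicate 2 and 0.06 without NMO replicate 3. Downstream, edgeR called 0 of 41 genes of TNF and NF-kB signalling, which is near the 0.472% of all genes called higher. Wholly above Normal lay 5 (12.2%, beside 9.21%) and wholly below 3 (7.32%, beside 8.2%). Past 1.5-fold with an unadjusted p under 0.05 were 1 higher, Bcl3 (2.44%, beside 5.2% of all genes), and 1 lower, Tnip1 (2.77% of all genes were). The number higher was 6 with library totals alone, 5 without NMO replicate 3 and 4 without Normal replicate 3. Bcl3, a nuclear partner of NF-kB, had the largest log2 fold change of the list, with 14.2 to 21.3 CPM in NMO against 0.673 to 8.13 (2.34, 0.147, but 0.0346 with DESeq2, 0.00182 without a filter and 0.0081 without Normal replicate 1), Bcl2a1b and Bcl2a1d were higher in each NMO library (0.50 and 0.57), and the NF-kB brake Tnip1 was lower (-0.99, 0.312). Nfkbia, Tnfrsf1b and Tnfrsf1a had log2 fold changes of 0.39, -0.18 and 0.06.

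The promoters of Ccl12 and Il1b are shown because both genes were called in all alternatives and hold a motif that few tested genes have. The 250 bases before the RefSeq start (GRCm38.p6) were searched on both strands for TATAAA, the core of the TATA box, which is in capitals and begins 31 bases before the start in both. The stretches are chr11:82101595-82101844 on the plus strand and chr2:129371140-129371389 on the minus strand, written 5′ to 3′.
Ccl12: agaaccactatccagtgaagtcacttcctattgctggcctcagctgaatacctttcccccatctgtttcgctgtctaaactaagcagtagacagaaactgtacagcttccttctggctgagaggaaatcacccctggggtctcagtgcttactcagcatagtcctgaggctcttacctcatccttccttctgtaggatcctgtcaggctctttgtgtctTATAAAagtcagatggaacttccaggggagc
Il1b: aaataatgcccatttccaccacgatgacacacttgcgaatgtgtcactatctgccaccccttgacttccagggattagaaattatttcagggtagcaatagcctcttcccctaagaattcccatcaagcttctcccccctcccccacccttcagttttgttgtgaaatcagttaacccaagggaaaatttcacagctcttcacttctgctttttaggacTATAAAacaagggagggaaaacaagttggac
TATAAA was found in 10 of the 50 tested chemokine, cytokine and complement genes with a promoter in the table, in 4.35% of the 69 ribosome biogenesis genes, in 6.41% of 9328 tested genes and in 12.97% of all 27025 promoters. TGANTCA, the letters that the factor AP-1 binds, was in 7 of the 50, in 0 of the 69, in 4.08% of the tested genes and in 6.87% of all. Of the 58 genes called higher, 47 had a promoter in the table, and 7 of these held TATAAA and 4 TGANTCA. A match describes the letters only.

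The receptors C5ar1 and C3ar1 rose, and edgeR called no complement component. C5ar1 (chromosome 7, 16246743 to 16259540, minus strand), the receptor of C5a, had 86.1, 70.1 and 79.8 CPM in Normal and 245, 348 and 192 in NMO (log2 fold change 1.73, SE 0.26, adjusted p = 0.00372). No alternative ended that call. The gene of the C3a receptor, C3ar1 (chromosome 6, 122847138 to 122856161, minus strand), stood at 310, 278 and 264 CPM in Normal and 652, 612 and 440 in NMO. Neither receptor overlapped between the groups. The second C5a receptor, C5ar2, had 99.1, 119 and 123 CPM in Normal and 109, 137 and 51.6 in NMO, with overlap (-0.19, adjusted p = 0.937). The C3ar1 rise of 1.00 on the log2 scale (SE 0.18, adjusted p = 0.0160) was not called without Normal replicate 1 (0.0559), 2 (0.109) or 3 (0.115) or without NMO replicate 1 (0.112) or 2 (0.0535). C1qa, C1qb and C1qc, the subunits of C1q, ranged from 2626 to 4406 CPM in Normal and from 2453 to 4506 in NMO (log2 fold changes -0.19, -0.11 and -0.01). C3 was low, with 20 to 54 counts in each library, and its difference of -0.01 changed sign between fits. C4b had 4.62, 4.97 and 0.673 CPM in Normal and 13.8, 10.8 and 18.7 in NMO (2.06, adjusted p = 0.0655 by edgeR), and was called with DESeq2 (0.00457), with library totals alone (0.0333) and without a filter (0.000164), although reads of its end may also come from its copy C4a. Hc, which encodes C5, had 0, 49 and 25 counts in Normal and 1, 0 and 0 in NMO (adjusted p = 0.154 by edgeR, but 0.0139 with DESeq2 and 0.0236 without a filter, both as lower). Of 23 complement genes tested, 2 were called higher (8.70%, beside 0.472% of all genes) and the median was -0.09. Among 18 receptors of chemokines and chemoattractants, edgeR's calls were again C3ar1 and C5ar1 (11.1%, beside 0.472% of all genes). Ccr1 was higher in each NMO library at 8.42 to 12.8 CPM against 2.02 to 2.55 (2.14, 0.231), while Cx3cr1 (-0.09) overlapped.

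Other receptors also rose. Gpr84, a receptor for medium-chain fatty acids on activated myeloid cells, had 81.3, 49.96 and 67.1 CPM in Normal and 266, 244 and 237 in NMO (log2 fold change 1.92, SE 0.28, adjusted p = 0.00372), with a small spread among the NMO libraries. Gpr65, a receptor that senses acid, had 20.7, 14.1 and 13.6 CPM in Normal and 60.9, 47.4 and 27.9 in NMO (1.49, adjusted p = 0.0447). The Gpr84 call held in all 18 alternatives and the Gpr65 call in 11. Of 28 Fc and Toll-like receptor genes, 0 were called by edgeR (0.472% of all genes were called higher), and 5 were higher past 1.5-fold with an unadjusted p under 0.05 (17.9%, beside 5.2% of all genes). Tlr2 was higher in each NMO library at 75.1 to 112 CPM against 29.2 to 53.1 (1.15, 0.150), and so were Tlr13 (0.71) and the inhibitory Fc receptor Fcgr2b (0.70). Irak2 was lower in each (-0.68, 0.456). Fcgr4, which binds IgG, reached 49.5 and 64.0 CPM in NMO replicates 1 and 2 but 12.2 in replicate 3, within the Normal values of 6.77 to 18.2 (1.86, 0.0832). It was called without NMO replicate 3 (0.00357), with library totals alone (0.0454) and without a filter (9.26e-09), and Tlr2 was called with DESeq2 (0.0455) and without a filter (0.00112). Fcer1g, Fcgr3 and Unc93b1 had log2 fold changes of -0.02, -0.30 and -0.10.

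Carriers of iron and zinc were among the rises. Tfrc (chromosome 16, 32608920 to 32632794, plus strand), the transferrin receptor that brings iron into cells, had 8.29, 11.6 and 8.41 CPM in Normal and 52.9, 56.5 and 67.6 in NMO. The NMO values lay close together (log2 fold change 2.64, SE 0.31, adjusted p = 3.79e-04), and the call held in all 18 alternatives. Slc39a14 (chromosome 14, 70303469 to 70351425, minus strand), an importer of zinc and iron, had 4.14, 6.02 and 1.51 CPM in Normal and 39.4, 41.1 and 26.7 in NMO (3.18, SE 0.45, adjusted p = 0.00275) and lost its call only with limma-voom (0.0625). Cp, the copper protein ceruloplasmin that oxidises iron, had 9.40, 11.9 and 6.90 CPM in Normal and 46.3, 23.9 and 39.4 in NMO (1.95, adjusted p = 0.0425). Its call failed in 8 of 18 alternatives, among them those without Normal replicate 1 (0.161), 2 (0.119) or 3 (0.204) and without NMO replicate 1 (0.200) or 3 (0.0904). Slc40a1, ferroportin, the exporter of iron, had 129 to 152 CPM in Normal and 67.5 to 82.9 in NMO, with no call by edgeR (-0.91, adjusted p = 0.128) and one with DESeq2 (0.0311) and without a filter (0.0331). The importer Slc11a2 (0.90, 0.210) and the ferritin chains Fth1 (0.58, 0.409) and Ftl1 (0.41, 0.520) were higher in each NMO library. Trf, transferrin, overlapped (-0.37). Saa3, an acute-phase gene, had 0, 0 and 8 counts in Normal and 10, 105 and 18 in NMO (adjusted p = 0.181), and its end resembles many other transcripts. Of 22 metal and acute-phase genes tested, 3 were called higher (13.6%, beside 0.472% of all genes), 7 lay wholly above Normal (31.8%, beside 9.21%) and 3 wholly below (13.6%, beside 8.2%), and the median was 0.25 (0.42 without Normal replicate 1 and 0.09 without NMO replicate 2).

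Genes of lipid uptake and the lysosome moved singly. Lpl (chromosome 8, 68880491 to 68907448, plus strand), lipoprotein lipase, had 21.7, 18.7 and 43.6 CPM in Normal and 242, 208 and 157 in NMO (log2 fold change 2.86, SE 0.34, adjusted p = 3.79e-04, called in all 18 alternatives). Lpl was the only gene that edgeR called (3.85%, beside 0.472% of all genes) of the 26 tested members of the disease-associated microglia list, the genes that mark microglia around plaques and damage. Cst7 had 12, 4 and 7 counts in Normal and 40, 78 and 21 in NMO (2.25, 0.202), and Lilrb4a 43, 0 and 23 against 229, 129 and 107 (2.52, 0.123). Cd52 was higher in each NMO library (0.60, 0.376), and Gpnmb had 3, 10 and 17 counts in Normal and none in NMO (0.465). B2m, Ctsb and Ctsd had log2 fold changes of -0.27, 0.39 and -0.33, and the list median was 0.28 (0.07 without Normal replicate 2 or without NMO replicate 2). In the lysosome, Ctsc, which activates serine proteases, had 265, 247 and 306 CPM in Normal and 629, 671 and 401 in NMO (1.06, adjusted p = 0.0350, called in 12 of 18 alternatives), as edgeR's only call among 43 genes (2.33%, beside 0.472% of all genes) with a median of -0.08. Gusb (0.90, 0.0783) was higher and Ctsf (-0.70) and Laptm5 (-0.41) lower in each NMO library, and Ctss (-0.23) overlapped. Naaa, which degrades N-acylethanolamines in lysosomes, had 27.2, 27.1 and 40.6 CPM in Normal and 98.1, 85.4 and 57.0 in NMO (1.34, adjusted p = 0.0447). Dab2, an endocytic adaptor, had 24.1, 21.8 and 22.9 CPM in Normal and 63.7, 84.6 and 37.0 in NMO (1.43, adjusted p = 0.0324).

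Among the 27 pathway lists, ribosome biogenesis had the largest median and the largest share of genes wholly above Normal, and its median ranked first in each alternative except a mean of at least 50 counts, where that of chemokines was 0.80 against 0.73. Of 79 ribosome biogenesis genes tested, 75 had a positive log2 fold change, the median was 0.74, 43 had all NMO libraries above all Normal libraries (54.4%, beside 9.21% of all genes) and 0 had them all below (beside 8.2%). Past 1.5-fold with an unadjusted p under 0.05, 42 were higher (53.2%, beside 5.2%) and 0 lower. At the adjusted threshold edgeR called 7, all higher (8.86%, beside 0.472%): Rrs1, Gnl3, Ftsj3, Nop56, Ddx21, Pa2g4 and Wdr43. Between fits the list median moved only from 0.64 to 0.84, while the number called ran from 3 to 21. Gnl3 (chromosome 14, 31012433 to 31019152, minus strand) encodes nucleostemin and had 35.2, 56.0 and 61.2 CPM in Normal and 132, 127 and 191 in NMO (1.56, SE 0.24, adjusted p = 0.00465). Ddx21, an RNA helicase of the nucleolus, had 145, 224 and 174 CPM in Normal and 448, 487 and 378 in NMO (1.27, SE 0.20, adjusted p = 0.00505). Pa2g4, a growth-regulated factor bound to ribosomes, had 95.8, 129 and 118 CPM in Normal and 265, 269 and 264 in NMO (1.22, SE 0.18, adjusted p = 0.00372). Each alternative kept the call of these 3. Rrs1, needed for the large subunit, had 14.98, 13.1 and 16.99 CPM in Normal and 55.8, 43.3 and 46.1 in NMO (1.69). Ftsj3, a methyltransferase of ribosomal RNA processing, went from 55.0 to 76.8 CPM up to 122 to 196 (1.30), and Wdr43, of the small subunit processome, from 101 to 140 up to 236 to 275 (0.99). Of the members without a call, those named by an unadjusted p under 0.05 and no overlap were Rrp15 (2.05), Nob1 (1.89), Ppan (1.71) and Rrp9 (1.56), with adjusted p between 0.0764 and 0.138. Ncl, nucleolin, had 484, 586 and 602 CPM in Normal and 1054, 855 and 890 in NMO (0.74, 0.0587 by edgeR), and was called in 5 alternatives, with DESeq2 (0.000688), limma-voom (0.0273), library totals alone (0.0443), no filter (0.015) and without NMO+CL replicate 3 (0.0436). Genes outside the list were called higher too. Grwd1, a ribosome assembly chaperone, had 4.46, 11.4 and 5.22 CPM in Normal and 37.97, 38.2 and 17.9 in NMO (2.15, adjusted p = 0.0301). Gpatch4, of the nucleolus, had 14.5, 30.1 and 23.2 CPM in Normal and 74.3, 79.2 and 55.4 in NMO (1.62, adjusted p = 0.0202). Pprc1, a coactivator of mitochondrial biogenesis, had 2.39, 8.43 and 7.07 CPM in Normal and 17.2, 37.6 and 32.7 in NMO (2.29, adjusted p = 0.0479).

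The promoter of Nop56, a core protein of the small nucleolar particles that methylate ribosomal RNA, is shown as the contrast to those of Ccl12 and Il1b. Nop56 (chromosome 2, 130274430 to 130279313, plus strand) had 30.8, 58.7 and 42.2 CPM in Normal and 122, 118 and 84.5 in NMO (log2 fold change 1.30, SE 0.25, adjusted p = 0.0241), and its end shares exonic bases with Idh3b on the other strand and resembles 5 other transcripts. In chr2:130274162-130274411 (plus strand, GRCm38.p6) the capitals mark the 1 match to GGGCGG, the GC box, which lies on the other strand, so it is printed as its reverse complement, and begins 104 bases before the start.
Nop56: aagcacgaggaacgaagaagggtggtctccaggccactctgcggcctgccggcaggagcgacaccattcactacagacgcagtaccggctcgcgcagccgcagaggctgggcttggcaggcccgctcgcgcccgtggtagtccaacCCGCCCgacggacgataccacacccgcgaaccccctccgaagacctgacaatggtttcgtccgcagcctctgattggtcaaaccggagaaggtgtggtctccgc
GGGCGG was in 60.9% of ribosome biogenesis promoters, close to the 58.8% of all tested genes, and in 26.0% of those of the chemokine, cytokine and complement genes. CACGTG, the E-box that MYC binds, was in 4.35%, 8.60% and 4.0% of these. Myc itself is outside the naming rule and was chosen after values were seen. It had 187, 12 and 75 counts in Normal and 327, 412 and 60 in NMO, with overlap (1.18, adjusted p = 0.655).

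Ribosomal proteins and translation factors moved less than the genes that assemble ribosomes. Of 82 cytoplasmic ribosomal proteins 72 had a positive log2 fold change, but the median was 0.30. Higher past 1.5-fold with an unadjusted p under 0.05 were 4 (4.88%, beside 5.2% of all genes), a number from 3 with limma-voom to 13 with library totals alone. Of the list, 27 lay wholly above Normal (32.9%, beside 9.21%). Its 1 call by edgeR (1.22%, beside 0.472% of all genes, and 0 to 2 between fits) was Rps2, with 32.7, 40.6 and 37.4 CPM in Normal and 73.3, 118 and 126 in NMO (1.52, adjusted p = 0.0325), whose end resembles 66 other transcripts. The call of Rps2 failed in 6 of 18 alternatives, namely limma-voom (0.0661), without Normal replicate 1 (0.163), 2 (0.120) or 3 (0.155) and without NMO replicate 2 (0.0888) or 3 (0.0904). Rpsa was just short of the threshold with edgeR (1.09, 0.0534) and was called in 5 alternatives, with DESeq2 (0.0043), library totals alone (0.0236), no filter (0.00176), a mean of at least 50 counts (0.0442) and without NMO replicate 3 (0.0435). Rps4x and Rpl15 were higher in each NMO library (0.57 and 0.51), and Rplp1, Rps9 and Rps14 had log2 fold changes of 0.00, -0.19 and -0.03. Of 65 translation factors and tRNA synthetases, 59 were positive, the median was 0.50, 32 lay wholly above Normal (49.2%, beside 9.21% of all genes), and 3 were called higher (4.62%, beside 0.472%), a number that ran from 1, without any of the Normal libraries or NMO replicate 1 or 2, to 11 with DESeq2. Eef1g, a subunit of the elongation factor that loads tRNA, had 39.8, 47.9 and 47.6 CPM in Normal and 131, 131 and 142 in NMO (1.58, SE 0.22, adjusted p = 0.00274, called in all 18 alternatives). Eif2s1, the alpha subunit of the initiation factor eIF2, had 28.5, 17.9 and 29.3 CPM in Normal and 51.3, 63.4 and 71.7 in NMO (1.30, adjusted p = 0.0451), and Eif5a had 108, 86.8 and 117 against 220, 233 and 196 (1.06, adjusted p = 0.0164). Eif4ebp1 (1.27), Eif2b3 (1.24), Iars (1.23, adjusted p = 0.0524) and Vars (1.17) were higher in each NMO library without a call. Eef1a1, Eif3a and Eef2 had log2 fold changes of 0.61, 0.46 and 0.47. The only called fall of the list was that of Eef2k, the kinase that inhibits elongation factor 2, which had 117, 127 and 124 CPM in Normal and 56.8, 63.8 and 59.2 in NMO (-1.03, SE 0.22, adjusted p = 0.0479). Each group was tight, yet 9 of 18 alternatives ended the call, including each fit without a Normal library (0.125, 0.186 and 0.168), each without an NMO library (0.185, 0.119 and 0.0923) and that without NMO+CL replicate 2 (0.0635).

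**Figure D3:**
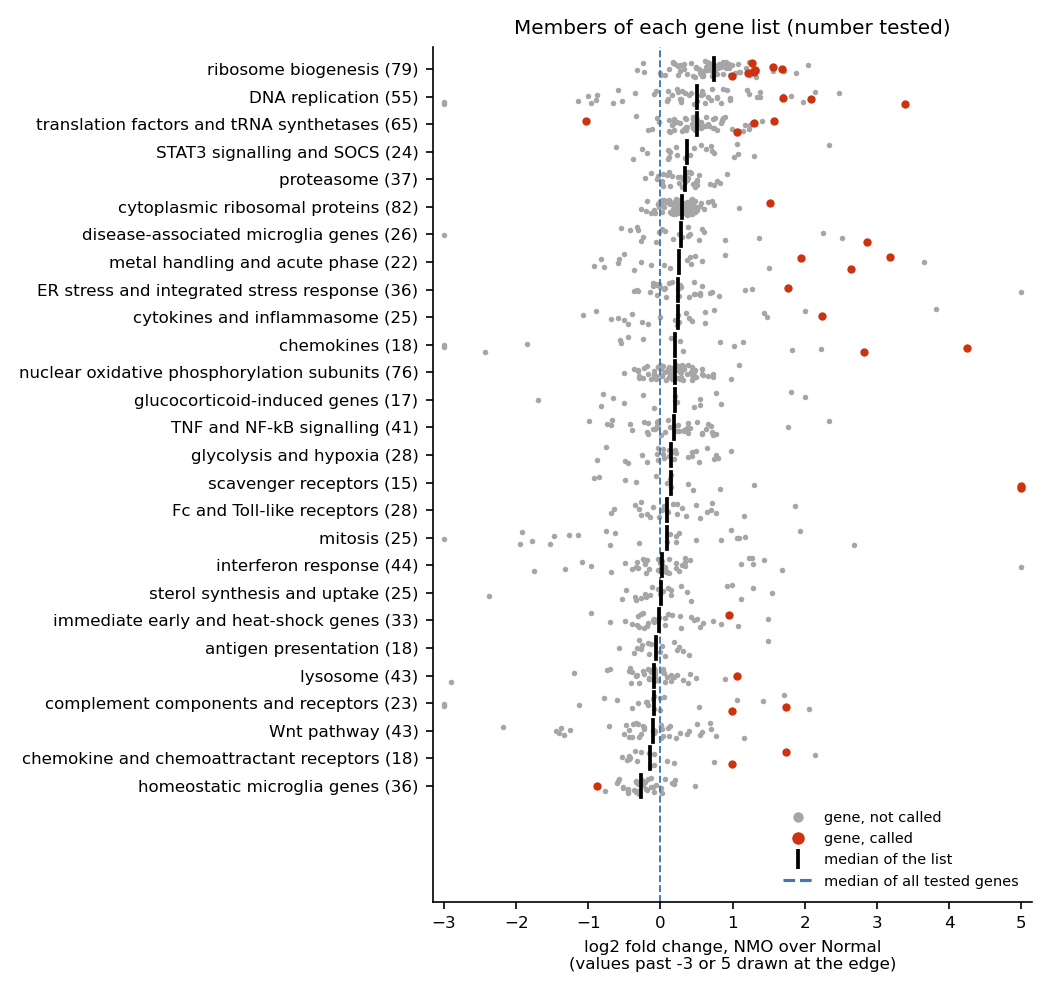
Log2 fold changes of NMO over Normal for the tested members of 27 gene lists, ordered by list median, with grey points for genes that were not called, red points for called genes, a black tick at the list median and a dashed line at the median of all tested genes (-0.01). Ribosome biogenesis lies farthest to the right (0.74) and homeostatic microglia genes farthest to the left (-0.27), whereas the scavenger receptors, the 2 called members of which are drawn at the right edge, have a median near that of all genes.

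Genes of protein folding and amino acid supply were also among the rises. Hspa8, the constitutive chaperone HSC70, had 279, 302 and 331 CPM in Normal and 602, 585 and 574 in NMO (0.95, SE 0.16, adjusted p = 0.00908), and was edgeR's only call among 33 immediate early and heat-shock genes (3.03%, beside 0.472% of all genes), whose median was -0.01. Hsp90ab1 had 832, 1275 and 1401 CPM in Normal and 2161, 2080 and 2036 in NMO (0.84, 0.0657). Ier2 (1.08), Hsph1 (0.59) and Hspa5 (0.47) were higher in each NMO library, and Jun (-0.24) overlapped. Cct3, Cct4 and Cct6a, subunits of the chaperonin that folds actin and tubulin, were called (1.33, 1.15 and 1.11, adjusted p = 0.00872, 0.0419 and 0.0112). The whole complex was looked up because these members were called: all 8 subunits had positive log2 fold changes, from 0.51 to 1.33, and 7 lay wholly above Normal (87.5%, beside 9.21% of all genes). The 7 include the 3 called subunits that prompted the look, so the share cannot be weighed against that of all genes. In the list of ER stress and the integrated stress response edgeR called 1 of 36 genes (2.78%, beside 0.472% of all genes). This was Shmt2, a mitochondrial enzyme of serine and folate metabolism, with 16.1, 10.2 and 13.8 CPM in Normal and 55.7, 48.4 and 33.0 in NMO (1.77, adjusted p = 0.0180). Psat1 (1.27, 0.0534), Mthfd2 (1.18, 0.0752) and Pdia6 (0.46) were higher in each NMO library, Asns had 0 counts in Normal and 13, 24 and 0 in NMO, and Hsp90b1 (0.13) and Calr (-0.02) overlapped. Slc7a1, a carrier of arginine and lysine, had 22.6, 26.9 and 10.3 CPM in Normal and 70.7, 78.3 and 54.9 in NMO (1.77, adjusted p = 0.0110). Of 37 proteasome genes 33 were positive, with a median of 0.34 (0.20 without NMO replicate 2). Of these 37, 9 lay wholly above Normal (24.3%, beside 9.21% of all genes) and 0 wholly below (beside 8.2%), and edgeR called 0 (beside 0.472% called higher). Psmb4 (0.82), Psmd6 (0.75), Psma2 (0.69) and Psmd7 (0.51) were among these 9, and Psma7 and Psmc3 had log2 fold changes of 0.32 and -0.05.

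Of the 55 DNA replication genes tested 3 were called higher (5.45%, beside 0.472% of all genes), and edgeR called no mitosis gene. Between fits the replication calls ran from 0 to 7, with 0 for limma-voom, for the 6 libraries only and without Normal replicate 1, Normal replicate 3 or NMO replicate 1. Timeless (chromosome 10, 128232065 to 128252941, plus strand), a protein of the replication fork, had 8, 15 and 3 counts in Normal and 143, 64 and 110 in NMO (log2 fold change 3.39, SE 0.64, adjusted p = 0.0202), and was not called without Normal replicate 1 (0.112), Normal replicate 3 (0.125) or NMO replicate 1 (0.0866). Pola1, the catalytic subunit of polymerase alpha, had 6.85, 5.72 and 4.54 CPM in Normal and 27.8, 20.9 and 24.2 in NMO (2.09, adjusted p = 0.0374). Mcm7, a subunit of the replicative helicase, had 18.2, 21.7 and 10.6 CPM in Normal and 44.3, 71.7 and 48.7 in NMO (1.70, adjusted p = 0.0214). The call of Pola1 failed in 9 of 18 alternatives and that of Mcm7 in 6. Other helicase subunits were higher in each NMO library without a call, although DESeq2 called Mcm6 (0.00796), Mcm2 (0.00796) and Mcm5 (0.0399), and the end of Mcm5 resembles 345 other transcripts: Mcm6 (2.47, 0.0832), Mcm2 (1.98, 0.0602), Mcm5 (1.81, 0.132) and Mcm3 (0.70, 0.288). Ccnd1, cyclin D1, had 260 to 307 CPM in Normal and 359 to 534 in NMO (0.66, 0.151), Rfc1 overlapped (-0.06), and Cdc45 had 19, 13 and 19 counts in Normal and 0, 0 and 2 in NMO (0.514). Of the 55 genes 42 were positive and the median was 0.51 (0.32 without NMO replicate 2), with 15 wholly above Normal (27.3%, beside 9.21% of all genes) and 2 wholly below (3.64%, beside 8.2%). Of 25 mitosis genes 13 were positive, the median was 0.09, 1 lay wholly above (4.0%, beside 9.21% of all genes) and 3 wholly below (8.2% of all genes were), and none was called by edgeR, with 2 lower past 1.5-fold and an unadjusted p under 0.05 (2.77% of all genes were). Cenpf (-1.92) and Birc5, at 2, 8 and 18 counts in Normal and 0 in NMO, were these, while H2afz (0.21), Kif20a (0.21) and Ccna2 (-0.75) overlapped. Called genes that supply nucleotides, chosen for mention after their values were seen, were Impdh2, the step to guanine nucleotides, with 4.30, 5.42 and 4.37 CPM in Normal and 17.6, 24.3 and 21.5 in NMO (2.16, adjusted p = 0.0351), and, for polyamines, the spermidine synthase Srm (1.40, adjusted p = 0.0164).

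The remaining called rises belonged to none of the 27 pathway lists. Sema6b, a semaphorin with fewer than 50 counts on average (2.41, adjusted p = 0.0479), was called in 5 of 17 alternatives. Snhg1, a host gene of small nucleolar RNAs, had 8.61, 14.6 and 23.4 CPM in Normal and 50.7, 40.8 and 84.1 in NMO (1.91, adjusted p = 0.0204). Cpd, carboxypeptidase D, had 71.7, 53.3 and 48.6 CPM in Normal and 255, 169 and 169 in NMO (1.77, adjusted p = 0.00509), and kept its call in 17 of 18 alternatives. Abhd11, a mitochondrial hydrolase, had 8.13, 6.62 and 7.57 CPM in Normal and 22.8, 25.02 and 34.3 in NMO (1.87, adjusted p = 0.0324). Ddx39, an RNA helicase, had 21.99, 22.1 and 26.2 CPM in Normal and 54.3, 62.5 and 70.1 in NMO (1.41, adjusted p = 0.00908), and Ran, the GTPase of nuclear transport, was called as well (1.30, 0.0164). Alg8 (1.36), Mogs (1.15) and Gcnt2 (1.24) build or trim glycans, Nomo1 (1.19) sits in the ER membrane, Nap1l1 (1.08) is a histone chaperone, Ybx3 (1.22) binds RNA, Flna (1.17) crosslinks actin, Spint1 (1.18) inhibits proteases, Fam111a (1.12) acts at replication forks and Rbpj (0.95) is the transcription factor of Notch signalling. 2510009E07Rik (1.37) completed the list. The adjusted p of these last 11 genes ran up to 0.0465. Of the 61 called genes, 13 kept the call without each library in turn: the 10 called in all alternatives (Ccl12, Lpl, Tfrc, Il1b, Gpr84, C5ar1, Eef1g, Gnl3, Ddx21 and Pa2g4) and Marco, Msr1 and Slc39a14. The other 48 lost it without at least 1 library, such as Cpd (adjusted p = 0.0570) and Cct3 (0.0797) without Normal replicate 3, and Hspa8 without Normal replicate 1 (0.0644), Normal replicate 2 (0.0702) or NMO replicate 1 (0.0697). Ends of some called genes resemble other transcripts, namely Ddx39 (32 others), Hspa8 (11), Eef1g (5), Cct3, Srm and Naaa (2 each), and Eif5a, Impdh2 and Mcm7 (1 each). Exons on the other strand overlap the ends of Abhd11, Cp, Gpr84, Impdh2, Mcm7, Meg3 and Shmt2, and Snord22 lies within the end of Snhg1, so that reads of these genes may be shared.

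Genes of the resting state were mostly lower, by small amounts. Of 36 homeostatic microglia genes tested, 7 had a positive log2 fold change, the median was -0.27, 16 lay wholly below Normal (44.4%, beside 8.2% of all genes) and 1 wholly above (9.21% of all genes were), and edgeR called 1, lower (0.0244% of all genes were), a number that ran from 0 to 2 between fits. This was Siglech (chromosome 7, 55768178 to 55778925, plus strand), a sialic acid receptor, with 1236, 1432 and 1403 CPM in Normal and 715, 811 and 693 in NMO (log2 fold change -0.88, SE 0.17, adjusted p = 0.0287). It was not called without any 1 of the Normal libraries (0.0591, 0.150 and 0.117), without NMO replicate 1 (0.133) or 3 (0.0791), or with library totals alone (0.0717). Crybb1 (-0.76), the fructose carrier Slc2a5 (-0.60), Sparc (-0.59) and P2ry12 (-0.57) came next, each lower in all NMO libraries and with adjusted p from 0.131 to 0.398 by edgeR, and Sparc was called with DESeq2 (0.00753) and limma-voom (0.0431). Sparc, for example, had 3967, 3906 and 3418 CPM in Normal and 2410, 2757 and 2328 in NMO. Csf1r, the receptor microglia need to survive, was lower in each NMO library as well (-0.44, 0.504), and so was Cst3 (-0.32), but Cx3cr1 (-0.09) and Tmem119 (-0.06) overlapped, and the sign for Tmem119 changed with library totals alone and without Normal replicate 2. The third called fall, Meg3, a long non-coding RNA of neurons, rested on 1 library: it had 1065, 66 and 82 counts in Normal and 31, 32 and 43 in NMO (-3.73, adjusted p = 0.0493), and without Normal replicate 1 the log2 fold change was -1.29 (0.637). It was not called without NMO replicate 1 (0.185), 2 (0.134) or 3 (0.0884) or NMO+CL replicate 2 (0.0609) either. Of 43 Wnt pathway genes, 19 were positive, the median was -0.10, and 0 were called (0.472% of all genes were called higher). Past 1.5-fold with an unadjusted p under 0.05 were 0 (5.2% of all genes were higher and 2.77% lower). With library totals alone and without Normal replicate 3, 2 were higher past that rule. Csnk1e (-0.22), Gsk3b (-0.11) and Ctnnb1 (0.11) overlapped between the groups.

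Several further lists had no called gene by edgeR, at shares of 0.472% called higher and 0.0244% called lower over all genes. In the interferon response the median was 0.02 for 44 genes, with 3 higher past 1.5-fold and an unadjusted p under 0.05 (6.82%, beside 5.2% of all genes). Ifitm3 had 25.8, 21.5 and 17.8 CPM in Normal and 71.2, 43.1 and 42.9 in NMO (1.27, 0.104), Slfn2 was also higher in each NMO library (1.44, 0.0752), Irf1 was lower in each (-0.22), and Ly6e (-0.16) and Trim30a (0.12) overlapped. STAT3 signalling had a median of 0.37 for 24 genes (0.18 without NMO replicate 1), with 4 past that rule (16.7%, beside 5.2% of all genes). Il4ra, the receptor of IL-4, had 145, 209 and 231 CPM in Normal and 407, 285 and 527 in NMO and missed the call narrowly (1.06, 0.0501), Pim1 was higher in each library (1.03), and Stat3 (0.57) and Jak1 (-0.25) overlapped. Glycolysis had a median of 0.15 for 28 genes, 8 of them wholly above Normal (28.6%, beside 9.21% of all genes) and 1 wholly below (3.57%, beside 8.2%). Ldha (0.98), Pkm (0.64) and Hk2 (0.49) were higher and Pfkfb4 (-0.87) lower in each NMO library, and Aldoa (-0.03) and P4ha1 (0.04) were near 0. Oxidative phosphorylation had a median of 0.20 for 76 genes (0.13 without NMO replicate 2), with 13 wholly above Normal (17.1%, beside 9.21%). Higher past the rule were 4 (5.26%, beside 5.2% of all genes), a number from 0 without Normal replicate 3 to 7 with library totals alone or without a filter. Uqcr11 (1.09), Sdhc (0.73) and Ndufa12 (0.58) were higher in each NMO library, and so were Atp5a1 (0.26), Atp5g3 (0.49) and Atp5b (0.44), its members of highest mean CPM. Sterol synthesis had a median of 0.00 for 25 genes, with Hsd17b7 (1.55) higher in each NMO library, and Abca1 (-0.11), Ebp (0.00) and Abcg1 (-0.35) not. Antigen presentation had a median of -0.07 for 18 genes, 0 of which lay wholly to 1 side (9.21% of all genes lay above and 8.2% below), H2-D1 (-0.25) and Tapbp (-0.17) included. Glucocorticoid-induced genes, listed with the receptor Nr3c1, had a median of 0.20 for 17 genes and a range from -1.69 to 2.01. Wholly above Normal lay 3 (17.6%, beside 9.21% of all genes) and wholly below 3 (17.6%, beside 8.2%). Sult1a1 (-0.66) and Nr3c1 (-0.25) were lower in each NMO library, and Sgk1 (-0.08) and Dusp1 (0.55) overlapped. Between the alternatives some list medians crossed 0: those of mitosis (-0.48 to 0.21), interferon response (-0.06 to 0.14), glycolysis (-0.02 to 0.27), sterol synthesis (-0.12 to 0.20), antigen presentation (-0.22 to 0.09), glucocorticoid-induced genes (-0.07 to 0.48), the Wnt pathway (-0.24 to 0.0058), the lysosome (-0.18 to 0.03), complement (-0.23 to 0.0084), chemoattractant receptors (-0.21 to 0.05) and immediate early genes (-0.16 to 0.20), as well as that of all genes (-0.06 to 0.10).

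Calls named without a tool are those of edgeR. Of 1057 tested list members that edgeR did not call, 61 were called in at least 1 alternative, 42 as higher and 4 as lower with DESeq2 and 48 and 4 without a filter. With library totals alone 16 were called, with limma-voom 3 higher and 1 lower, and without 1 library at most 7. The 4 falls with DESeq2 were Hc, Pdgfra, Slc40a1 and Sparc. Of the members described here as uncalled, DESeq2 also called Cad, Ccnd1, Eef2, Eif4ebp1, Gusb, Hk2, Hsp90ab1, Iars, Ifitm3, Il4ra, Ipo4, Mthfd2, Nob1, Pkm, Ppan, Psat1, Rrp15, Rrp9, Slfn2 and Vars, all higher. Il4ra was called in 9 alternatives and Hsp90ab1 in 6. Without a filter, but not with DESeq2, Cbr2 was called lower and Fcgr4, Ldha, Lilrb4a, S100a4 and Saa3 higher. In the other direction, 26 of the 61 called genes lost the call in more than 5 alternatives: Ccl2, Sema6b, Pprc1, Impdh2, Grwd1, Pola1, Cp, Abhd11, Mcm7, Rps2, Gpr65, Dab2, Alg8, Naaa, Eif2s1, Ybx3, Nomo1, Flna, Cct4, Nap1l1, Ctsc, Wdr43, Rbpj, Siglech, Eef2k and Meg3.

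Markers of other cells were low beside those of microglia. The gate, positive for CD11b and P2ry12, is meant to remove monocytes, which the study sorted as P2ry12-negative, and lymphocytes, which lack CD11b. The summed CPM of 11 microglia identity genes ran from 34650 to 39521 in Normal and from 29955 to 34566 in NMO (exact permutation p = 0.1, adjusted over 11 marker lists 0.367). The 16 monocyte markers summed to 127, 92.4 and 104 CPM in Normal and 187, 131 and 120 in NMO (exact p = 0.2, adjusted 0.367). Their order over the NMO libraries was that of Marco, Msr1 and Il1b, highest in replicate 1 and lowest in replicate 3, and their part in the rises of these genes was not tested. Of the defining monocyte genes, Ly6c2 had 30, 0 and 2 counts in Normal and 44, 20 and 35 in NMO, Ccr2 overlapped (0.19), S100a4 was higher in each NMO library at 14.6 to 42.6 CPM against 2.87 to 12.96 (2.03, 0.207), and Gm9733 had at most 3 counts in each library. The 16 neutrophil markers, led by S100a8, S100a9 and Csf3r, summed to 611, 103 and 133 CPM in Normal and 343, 175 and 506 in NMO (exact p = 0.8). Without Normal replicate 1 all NMO sums lay above Normal, the median log2 fold change of the tested neutrophil markers went from 0.31 to 2.12, and 1 of them was called, while it was below 0 without Normal replicate 2 (-0.04), Normal replicate 3 (-0.10) or NMO replicate 3 (-0.26). Their part in the rises was not tested. The 16 border macrophage markers had 311 to 489 and 220 to 369 CPM (exact p = 0.3), with Cd209f and Cd209g at most at 3 counts in each library and Cbr2 at 159, 0 and 155 CPM in NMO. The 16 lymphocyte markers had 18.1 to 24.9 and 9.77 to 23.9 CPM (exact p = 0.7), and 7 of them, Cd3e and Cd8a included, had at most 3 counts in each library.

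Summed markers of astrocytes, oligodendrocytes and endothelial cells had lower means in NMO, in a design that cannot reach an exact p under 0.1. The 12 astrocyte markers summed to 179 to 222 CPM in Normal and 112 to 137 in NMO (exact p = 0.1, adjusted 0.367), most of it Slc1a3, at 142, 182 and 203 CPM in Normal and 122, 111 and 89.5 in NMO (-0.71, adjusted p = 0.279 by edgeR), while Gfap and Aldh1l1 had at most 3 counts in each library. Aqp4, the target of the antibody, had 2.71, 11.1 and 1.35 CPM in Normal and 4.90, 15.9 and 4.64 in NMO, with overlap. The 12 oligodendrocyte markers had 91.8 to 143 and 73.3 to 101 CPM (exact p = 0.2). Among them Pdgfra, of their precursors, had 28, 48 and 48 counts in Normal and 1, 0 and 3 in NMO (adjusted p = 0.0587 by edgeR), and was called lower with DESeq2 (0.000694), without a filter (0.00775) and without NMO replicate 3 (0.0351). The summed CPM came to 30.1 to 253 and 7.18 to 32.0 for the 14 neuron markers (exact p = 0.2), 81.6 to 132 and 52.3 to 108 for the 10 endothelial markers (exact p = 0.5) and 391 to 661 and 12.2 to 802 for the 6 erythroid markers (exact p = 0.8). The neuron sum was 253 CPM in Normal replicate 1 and 30.1 and 39.0 in the other Normal libraries, and the erythroid sum was 12.2 in NMO replicate 2 and 473 and 802 in the other NMO libraries. Ly6g was not analysed here.

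**Figure D4:**
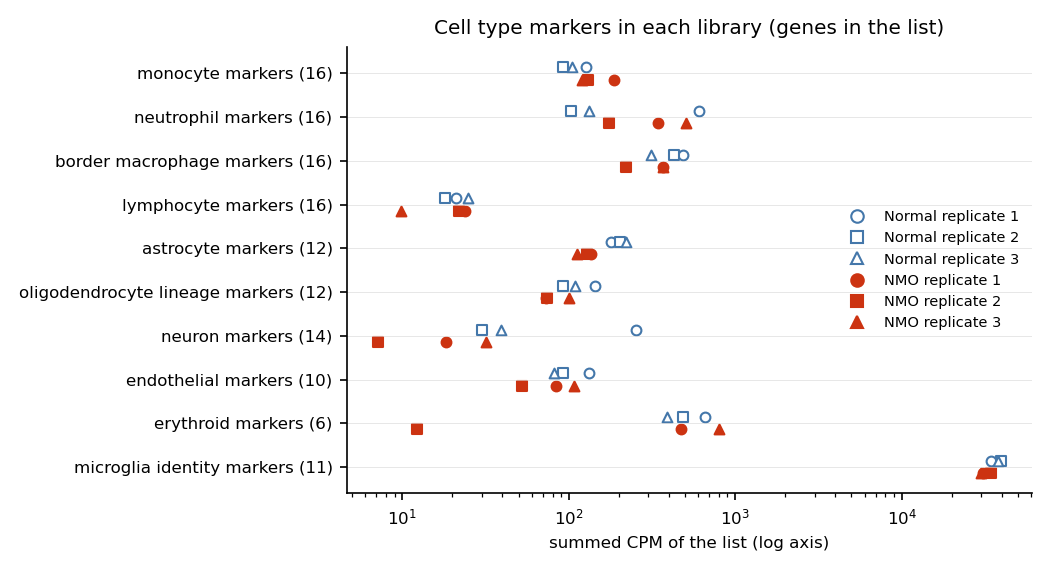
Summed CPM of each cell type marker list, the sort markers left out, on a log axis, with open blue symbols for Normal and filled red symbols for NMO libraries and a shape for each replicate. The microglia list lies at 29955 CPM or more in every library and no other list shown exceeds 802, the astrocyte sums of the groups are separate, and NMO replicate 2 has an erythroid sum of 12.2.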

How the data were processed

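Counts per gene were deposited for 9 libraries of sorted microglia, 3 in each of 3 groups, and 6 are compared here. The authors made QuantSeq 3′ libraries, sequenced single 75-base reads and took counts from unique and multiple alignments. The submitters' processing notes name Bowtie2, bedtools and mm10. The use of strand in counting is not given in the sources used here. The 23282 entries gave 23238 symbols after 35 repeated symbols were summed. Genes passing filterByExpr (minimum count 10, minimum total 15) were tested with edgeR 4.0.16 in R 4.3.3: scaling by trimmed mean of M values, a quasi-likelihood fit of all 9 libraries with 1 coefficient per group, two-sided F-tests and Benjamini-Hochberg adjustment over 12292 genes. SE is the size of the log2 fold change divided by the square root of F, so it adds nothing to the test. A number in parentheses after a gene is its log2 fold change, and a second number its adjusted p. Replicates are separate pools of mice. Library measures were compared by exact permutation over 20 arrangements.

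Named genes are the called genes, in each list the called members, the 3 of highest mean CPM and up to 4 others with an unadjusted p under 0.05 and no overlap, and a set of inflammatory and sort genes. Some genes that this rule takes are not reported here. The comparison, lists and names were chosen with earlier results of these data known, so the share of a list is a description, read beside that of all genes. The model was also run on simulated counts, with a spread taken from the main fit, and the outcome is not reported here. Positions are from GENCODE M21, starts and promoters from RefSeq. Transcript ends (last 500 bases) were searched for others with 90% identity over 75 bases, and called genes with matches are named. A count of 0 allows 3 counts. Intervals and floors cover counting error only. Fits with other scaling (RLE, library totals), filters, tests (DESeq2 1.42.0, limma-voom 3.58.1), the 6 libraries only, without Rn45s, with a replicate block and without each library were compared.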

Additional observations from a re-analysis of the deposited data

How the results depend on the processing

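The direction of the 61 called genes was the same in every alternative that gave a value, but their number was not. Of the 61, 10 were called in all alternatives (Ccl12, Lpl, Tfrc, Il1b, Gpr84, C5ar1, Eef1g, Gnl3, Ddx21 and Pa2g4), 25 lost the call in 1 to 5 and 26 in more than 5. In total, higher and lower genes, 61, 58 and 3 became 96, 95 and 1 with library totals alone (226 lower at the study's thresholds, and a median of all genes of 0.10), 223, 185 and 38 without a filter (511 lower at the study's thresholds), 224, 162 and 62 with DESeq2, and 34, 32 and 2 with the 6 libraries only. With limma-voom 37 were higher and 6 lower, and with a mean of at least 50 counts 7 were lower. Shared with the 61 were 59, 61, 60, 34, 35 and 60 of these calls in turn. Leaving out 1 library gave 20 to 75 called genes, 19 to 71 of them higher and 1 to 4 lower. Without Normal replicate 1, 2 or 3, 22, 29 and 20 were called, without NMO replicate 1 or 2 22 and 34, and the cause was not tested. With 2 libraries left in a group, the spread is taken from all groups.

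Same-numbered libraries did not deviate together (correlations from -0.00677 to 0.0143), so numbers were not taken as pairs. With a replicate block 53 genes were called, 52 higher and 1 lower, 48 of them among the 61.

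Small differences of genes that were not called changed sign. With library totals alone C3 came to 0.12, Tmem119 to 0.038 and Itgam to 0.0084, and with limma-voom C3 to 0.046. Ptprc came to -0.00259 with RLE, -0.00264 with DESeq2 and -0.0064 with a mean of at least 50 counts. Without 1 library, Il6 ran from -0.96 to 0.062, C3 from -0.31 to 0.35, Tmem119 from -0.20 to 0.026, Itgam from -0.25 to 0.016 and Ptprc from -0.072 to 0.11. The causes were not tested. The difference in genes detected (1005 fewer in NMO) came to -1183 to -741 (NMO minus Normal) without 1 library. A common coefficient of variation of 0.519 limits what 3 libraries can show.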

Other observations

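Some pathways were listed only after values of their genes were seen, and they are given as values. Of 5 pyrimidine synthesis genes 0 were called by edgeR and 3 were higher past 1.5-fold with an unadjusted p under 0.05 (60.0%, beside 5.2% of all genes), led by Ctps (log2 fold change 1.47) and Cad (1.44, adjusted p = 0.0587 by edgeR), the enzyme of the first steps, which had 8.29, 11.9 and 15.1 CPM in Normal and 34.7, 31.1 and 29.9 in NMO. Of 12 purine genes 3 were higher by that rule (25.0%) and Impdh2 was called (8.33%, beside 0.472% of all genes), with a median of 0.31 (0.58 without Normal replicate 3, 0.13 without NMO replicate 1, 0.20 without NMO replicate 2 and 0.63 without NMO replicate 3). Of 13 genes of the serine, glycine and folate cycle 6 lay wholly above Normal (46.2%, beside 9.21% of all genes), with Psat1 (1.27) and Mthfd2 (1.18) beside Shmt2, the only call (7.69%, beside 0.472%). Of 23 genes of N-glycan assembly and trimming 22 had positive log2 fold changes with a median of 0.38. In nuclear transport Ran was called (5.0%, beside 0.472% of all genes), and Ipo4 (1.72) and Ipo7 (1.49) were the largest of 20 genes with a median of 0.42. Polyamine synthesis was mixed, with Srm called (16.7%, beside 0.472% of all genes) and a median of -0.06 over 6 genes.

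Among genes past the study's thresholds, 80 of the 340 lower ones had 0 counts in every NMO library, and 25 of the 639 higher ones had 0 counts in every Normal library. The NMO libraries also had fewer genes detected, which moves with the first of these counts, and its part in them was not tested.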
